A study of Homo sapiens with 24 samples.

Results

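The proteins that build the core of the spliceosome were followed in 4 human digestive-tract cancer cell lines treated with melatonin. Members were chosen by gene symbol alone: the genes whose symbols begin with SF3A or SF3B and a number, SNRP, SNRNP and a number, PRPF, LSM, CWC or BUD and a number, or U2AF, together with U2SURP. This gave 64 of the 18244 genes on the arrays. They hold the Sm and LSm ring proteins, the proteins of the U1, U2, U4, U5, U6, U11 and U12 particles and several splicing factors that join them. One of the 64, SNRPD2P2, is a pseudogene of SNRPD2, and BUD23 is a methyltransferase of ribosomal RNA that takes no part in splicing. The set was chosen with earlier results of these data known. The study itself had reported the spliceosome pathway as enriched among the genes lowered by melatonin in each of the 4 lines.

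The spliceosome cuts introns out of pre-messenger RNA and joins the exons. Its building blocks are small nuclear ribonucleoprotein particles (snRNPs), each a small nuclear RNA held in a ring of Sm proteins (of LSm proteins for U6) with proteins of its own. U1 marks the start of an intron and U2 its branch point, after which U4, U6 and U5 arrive as a tri-snRNP and the PRPF19 complex helps to form the active site. A rare class of introns is recognised by U11 and U12 in place of U1 and U2. Dividing cells need a steady supply of new snRNPs, and SF3B1 and U2AF1 are known for mutations in cancers.

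HGC-27 cells (from a gastric carcinoma), HCT-8 cells (from a colorectal adenocarcinoma), and Huh-7 and HepG2 cells (from hepatocellular carcinomas) each formed a treatment group and a control group of 3 arrays, 24 arrays in all. The treatment groups received melatonin, the pineal hormone, at 2.5 mmol/L for 24 h. The study's methods give the controls ethanol, the solvent of melatonin, while the labels place them at 0 h of melatonin. Time in culture, solvent and melatonin can therefore not be told apart if the controls were taken at the start. All 8 groups were wild-type cells of established lines grown in serum, with no gene altered, and each cancer type rests on 1 or 2 lines. The study's methods call the 3 arrays of a group biological replicates, without describing how the cultures were separated, and the p-values measure the spread between these arrays.

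Values are log2 intensities, so a difference of 1 is a doubling. Where several lines are given without names, HGC-27 comes first, then HCT-8, then Huh-7 and at the end HepG2, and the first 3 of these are called the first 3 lines. Melatonin minus control was tested in each line with limma, a linear model that shares information on spread between genes, and a gene was called when its p-value, adjusted by the Benjamini-Hochberg method over all genes, was under 0.05. Arrays of a line correlated at 0.975 or above over all genes, except HepG2 melatonin replicate 1, which correlated at 0.938 to 0.953 with the other HepG2 arrays. On that array the 3′ probe set of ACTB exceeded the 5′ one by 8.34 log2 units, against 0.08 to 0.72 on the other 23 arrays, so HepG2 results are given with and without it. Liver markers were high in both liver lines, with ALB control means of 11.8 in HepG2 and 11.2 in Huh-7. The intestinal marker LGALS4 was high in HCT-8 cells (8.10), while CDX2 and CDH17, which mark intestinal epithelium, were high in Huh-7 cells too (7.62 and 7.28).

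After melatonin treatment, more spliceosome members were lower than higher in every line. In HGC-27 cells, 35 of the 64 members were downregulated, or 54.7%, against 18.6% of all genes, and 6 were upregulated, or 9.38%, against 20.9%. In HCT-8 cells, 22 were lower (34.4%, against 15% of all genes) and 5 higher (7.81%, against 16.6%). In Huh-7 cells, 42 were lower (65.6%, against 27.4%) and 6 higher (9.38%, against 23.8%). In each of these lines the members' share lower was more than that of all genes, and their share higher was less. In HepG2 cells, 8 were lower (12.5%, against 3.68%) and 2 higher (3.12%, against 3.87%). Without melatonin replicate 1, HepG2 had 31 members lower (48.4%, against 14.9%) and 3 higher (4.69%, against 16.5%). In RNA from whole cultures, fewer cells with a transcript and less transcript per cell cannot be told apart.

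**Figure D1:**
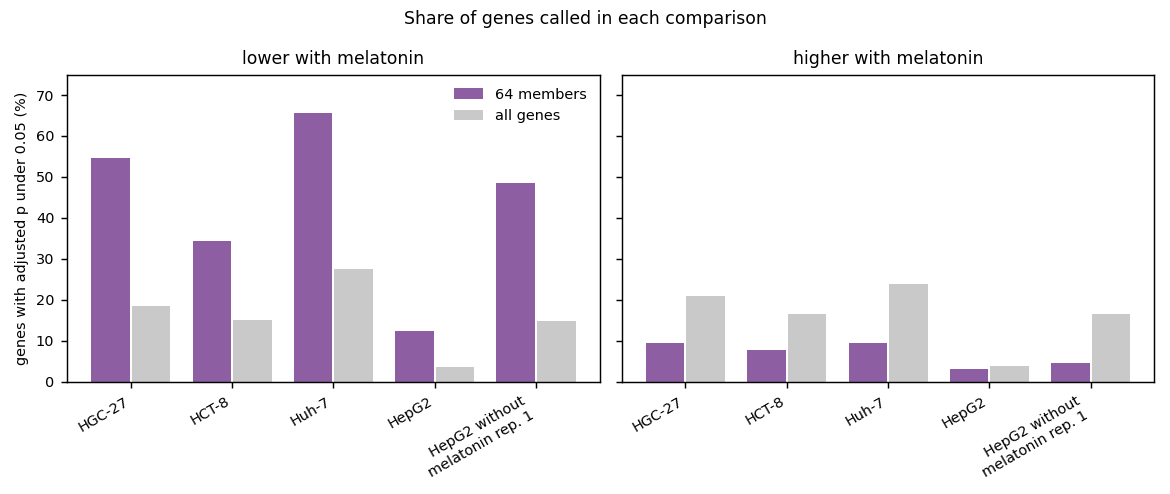
Share of genes (%, y axis) called lower or higher with melatonin in each line (x axis), for the 64 members (purple) and all 18244 genes (grey). The members' bars exceed the grey ones in the left panel and stay below them in the right panel for all 5 comparisons, from 54.7% against 18.6% lower in HGC-27 cells to 3.12% against 3.87% higher in HepG2 cells. After ERCC centring the HCT-8 bars would be 1 member lower (1.35% of all genes) and 7 higher (20% of all genes).

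The typical change was small. The median member changed by -0.23 log2 units in HGC-27 cells, against -0.01 for all genes. It changed by -0.12 in HCT-8 cells (all genes -0.03) and by -0.27 in Huh-7 cells (all genes -0.06). In HepG2 cells it changed by -0.19 (all genes 0.04), and by -0.17 without melatonin replicate 1 (all genes 0.01). Fold changes of at least 1.5 with an adjusted p under 0.05 were reached downward by 3, 1, 12 and 6 members in the 4 lines, against 2.89%, 1.77%, 7.07% and 2.7% of all genes (in HepG2 without melatonin replicate 1 by 9, against 4.34%). They were reached upward by 1, 0, 1 and 2 members, against 4.3%, 2.78%, 9.08% and 2.67% (in HepG2 without melatonin replicate 1 by 1, against 3.94%). The arrays of the groups did not overlap, with melatonin below control, for 39, 29, 46 and 22 members in the same order, against 24.2%, 24.2%, 33.2% and 15.1% of all genes (in HepG2 without melatonin replicate 1 for 39, against 25.5%). They lay above control without overlap for 6, 7, 6 and 9 members, against 24.9%, 21.5%, 26.3% and 20.4% (in HepG2 without melatonin replicate 1 for 11, against 27.9%). In all 4 lines the arrays lay apart downward for 11 members (5.57% of all genes) and upward for 2 (6.91%).

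Genes of dividing cells moved with these results. Of 7 markers (MKI67, TOP2A, CCNB1, CDK1, BUB1, PCNA and MCM2), 6, 6, 7 and 4 were lower in the 4 lines, with none higher. Of all genes, 18.6%, 15%, 27.4% and 3.68% were lower and 20.9%, 16.6%, 23.8% and 3.87% higher. The median changes of the markers were -0.37, -0.30, -0.71 and -0.74 log2 units in that order. In HepG2 without melatonin replicate 1, 7 were lower, against 14.9% of all genes, with a median of -0.88. Their part in the fall of the spliceosome members was not tested.

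Scaling mattered for the size of the split. The array holds 100 probe sets for RNA spike-ins (ERCC), whose addition the published methods do not describe, and 1 of them lay above the median signal. Whether its signal followed cell number was not tested. When the arrays were centred on that probe set, 7 members were lower and 5 higher in HGC-27 cells, and 1 lower and 7 higher in HCT-8. In Huh-7 cells 40 were lower and 2 higher, and in HepG2 cells 13 lower and 0 higher. Of all genes, 4.34%, 1.35%, 27% and 6.67% were then lower in the 4 lines and 19.4%, 20%, 14.7% and 1.02% higher, so that the members' share higher stayed below that of all genes in every line. The share lower among called members was then 58.3%, 12.5%, 95.2% and 100%, against 85.4%, 81.5%, 87.5% and 80% on the deposited scale. That centring moved the median of all genes to 0.14, 0.20, -0.16 and -0.20, and the members' median to -0.08, 0.12, -0.36 and -0.42. The members' median thus stayed below that of all genes in all 4 lines, but in HCT-8 cells it lay above 0. Of the 5 members lower in all 4 lines, SNRPD1 alone kept its call in HGC-27 and HCT-8 cells under that centring, and none of the 5 changed sign. All further values are on the deposited scale, relative to the other genes of the array.

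Across the lines, 44 members were lower in at least 1 line and higher in none, 7 were higher in at least 1 and lower in none, 1 (LSM4) was called both ways, and 12 were called in no line. Lower in each of the first 3 lines were 18 members, or 28.1%, against 6.17% of all genes. Lower in all 4 lines were 5 (7.81%, against 1.5%), namely SNRPD1, SNRPF, SNRNP40, PRPF4 and LSM7, and without HepG2 melatonin replicate 1 there were 15 (against 4.71%). Without melatonin replicate 2 of HepG2 there was 1, and without any 1 HepG2 control limma called 0. Higher in all 4 lines were 2 (3.12%, against 2.26%), BUD31 and SNRNP27, and without HepG2 melatonin replicate 1 again 2 (3.12%, against 6.17%), so the share was not above that of all genes. No single probe set of LSM7, PRPF4 or SNRNP27 was called in HepG2 cells. Of 16 alternative settings, the HepG2 call was kept in 12 for SNRPD1, 10 for SNRPF and SNRNP40, 9 for PRPF4 and 6 for LSM7. It was kept in 11 for BUD31 and 5 for SNRNP27.

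**Figure D2:**
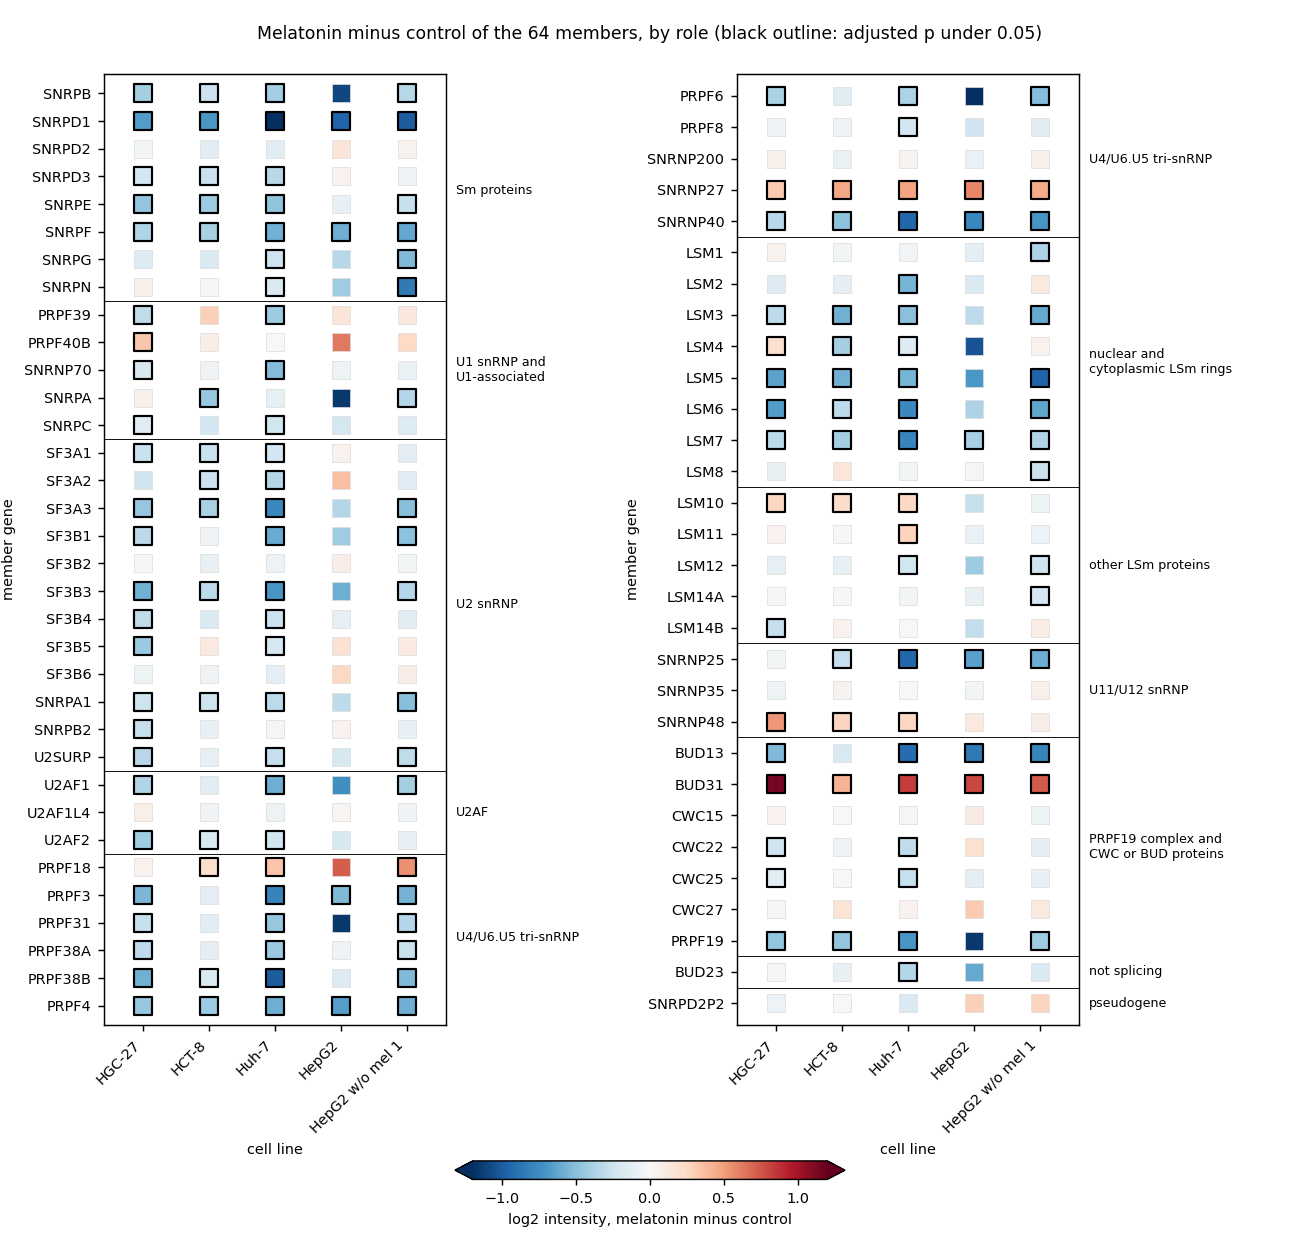
Change of each of the 64 members (rows, grouped by role) in each line (columns; the last one is HepG2 without melatonin replicate 1), as log2 intensity of melatonin minus control (blue lower, red higher; colours end at 1.2). A black outline marks an adjusted p under 0.05. Blue prevails among the Sm, U2, tri-snRNP and LSm ring proteins, while BUD31 and SNRNP27 are red and outlined in every column.

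The counts by role that follow are of few genes, and they stand beside 18.6%, 15%, 27.4% and 3.68% of all genes lower in the 4 lines and 20.9%, 16.6%, 23.8% and 3.87% higher (14.9% and 16.5% in HepG2 without melatonin replicate 1). Of the 8 Sm proteins, which form the ring around every spliceosomal RNA but U6, 5, 5, 7 and 2 were lower in the 4 lines (6 in HepG2 without melatonin replicate 1), and none was higher. SNRPD1, one of the D subunits of the ring, showed the largest fall of any member in the first 3 lines, level with LSM6 in HGC-27 cells. Its log2 intensities in HGC-27 cells were 7.49, 7.40 and 7.47 in control and 6.74, 6.80 and 6.81 with melatonin. In HCT-8 cells they were 6.74, 6.75 and 6.81 in control and 6.04, 6.11 and 6.05 with melatonin. In both lines every melatonin array lay well below every control array. In Huh-7 cells they were 7.90, 7.86 and 7.91 in control and 6.49, 6.44 and 6.50 with melatonin. In HepG2 cells they were 7.50, 7.47 and 7.40 in control and 6.59, 6.29 and 6.62 with melatonin. The groups did not overlap here either, and HepG2 melatonin replicate 1 (6.59) lay with its own group. SNRPD1 fell 1.59-fold in HGC-27 (log2 -0.67 ± 0.05, SE, n = 3 and 3 arrays, limma adjusted p = 1.52e-05) and 1.62-fold in HCT-8 cells (-0.70 ± 0.05, limma adjusted p = 4.78e-05). It fell 2.66-fold in Huh-7 (-1.41 ± 0.05, limma adjusted p = 2.44e-07) and 1.95-fold in HepG2 cells (-0.96 ± 0.11, limma adjusted p = 0.00934, and -1.0 without melatonin replicate 1).

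SNRPF, another ring subunit, had tight replicates. Its HCT-8 values were 7.06, 7.06 and 7.07 in control and 6.67, 6.66 and 6.67 with melatonin. The gap between the groups was many times their spread, and arrays did not overlap in the other lines either. SNRPF changed by -0.36, -0.40, -0.58 and -0.59 log2 units in the 4 lines (-0.62 in HepG2 without melatonin replicate 1). SNRPB, which encodes the B and B′ ring proteins, was lower in the first 3 lines (-0.41, -0.26 and -0.42). In HepG2 cells SNRPB was 8.15, 8.24 and 8.16 in control and 5.59, 7.81 and 7.88 with melatonin. The low value is that of replicate 1, which widened the error to -1.10 ± 0.61 (limma adjusted p = 0.365), while the other arrays gave -0.34 (limma adjusted p = 0.00442). SNRPE was also lower in those 3 lines (-0.47, -0.44 and -0.48) as was SNRPD3 (-0.21, -0.27 and -0.34). In HepG2 cells SNRPE changed by -0.10 (-0.28, called lower, without melatonin replicate 1) and SNRPD3 by 0.05 (-0.07 without it, not called). SNRPD2, the other D subunit of its pair with SNRPD1, was called in no line, with changes from -0.14 to 0.16. SNRPN, a relative of SNRPB from the imprinted Prader-Willi region, lay between 0.52 and 1.30 on every array of the first 3 lines, below those arrays' medians. SNRPN is 1 of the 7 Sm proteins lower in Huh-7 cells, at that dim signal, and neither of its 2 probe sets was called there. In HepG2 cells it was 4.54, 4.29 and 4.39 in control and 4.82, 3.37 and 3.76 with melatonin. Replicate 1 again went apart from the other arrays, and SNRPN changed by -0.42 with it (limma adjusted p = 0.557) and by -0.85 without it (limma adjusted p = 0.0014). Brighter probe sets shared with the gene SNURF, left out of that mean, changed by -0.24, -0.22 and -0.11 without replicate 1, none called.

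The 5 U1 and U1-associated proteins were less uniform, with 3 lower and 1 higher in HGC-27, 1 lower in HCT-8, 3 lower in Huh-7 and none called in HepG2 cells (1 lower without melatonin replicate 1). The 1 of 5 in HCT-8 cells is near the 15% of all genes. SNRNP70, the protein that binds the first stem-loop of U1 RNA, fell in HGC-27 (-0.21) and Huh-7 cells (-0.52) and changed by -0.05 in HCT-8 cells. SNRPC, which steadies the contact with the start of the intron, fell in the same lines (-0.15 and -0.23). SNRPA, which binds the second stem-loop of U1, fell in HCT-8 cells alone among the first 3 lines (-0.45 ± 0.06, limma adjusted p = 0.000636), with 0.06 in HGC-27 and -0.11 in Huh-7 cells. In HepG2 cells SNRPA changed by -1.16 (limma adjusted p = 0.371), or by -0.35 without melatonin replicate 1 (limma adjusted p = 0.0176). PRPF39, a U1 partner first described in yeast, fell in HGC-27 (-0.31) and Huh-7 (-0.43) and measured 0.28 in HCT-8 cells (limma adjusted p = 0.133). PRPF40B, the human counterpart of a yeast U1 bridging protein, rose in HGC-27 cells (0.33) and was called in no other line.

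Among the 12 U2 proteins, 9, 5 and 9 were lower in the first 3 lines, and none was higher in any line. In HepG2 cells none was called, and 5 were lower without melatonin replicate 1. SF3A3, a subunit of the SF3a complex that attaches U2 to the branch point region, was 8.34, 8.34 and 8.40 in control and 7.85, 7.92 and 7.90 with melatonin in HGC-27 cells. In Huh-7 cells it was 8.34, 8.32 and 8.38 in control and 7.61, 7.53 and 7.58 with melatonin. No arrays overlapped in these lines. SF3A3 changed by -0.47, -0.39 and -0.77 in the first 3 lines, and in HepG2 by -0.35 (limma adjusted p = 0.256) or -0.51 without melatonin replicate 1 (limma adjusted p = 0.000936). Of its 2 probe sets the brighter measured -0.15 in HGC-27 and -0.12 in HCT-8 cells, not called, against -0.79 and -0.66 on the other. Both were called lower in Huh-7 cells. SF3B3, a large scaffold of the SF3b complex, changed by -0.58, -0.33 and -0.71 in the first 3 lines, and by -0.59 in HepG2 cells (limma adjusted p = 0.184), or -0.35 without melatonin replicate 1. SF3B1, the SF3b subunit that clamps the branch point, fell in HGC-27 (-0.33) and Huh-7 (-0.61) and measured -0.05 in HCT-8 cells. In HepG2 cells SF3B1 changed by -0.43 (limma adjusted p = 0.0573), or by -0.50 without melatonin replicate 1 (limma adjusted p = 0.00155). SNRPA1, which binds U2 RNA together with SNRPB2, fell in the first 3 lines (-0.25, -0.25 and -0.32) and in HepG2 cells without melatonin replicate 1 (-0.51, against -0.31, not called, with it), whereas SNRPB2 fell in HGC-27 cells only (-0.29). The SF3b subunits SF3B2 and SF3B6 were called in no line, with changes between -0.12 and 0.25. Of the U2AF proteins, which read the end of the intron, U2AF1 fell in HGC-27 (-0.36) and Huh-7 cells (-0.58), and in HepG2 cells without melatonin replicate 1 (-0.41, against -0.74, not called, with it). U2AF2, its larger partner, fell in HGC-27 (-0.43), HCT-8 (-0.20, but 0.035 after ERCC centring) and Huh-7 cells (-0.23). The minor relative U2AF1L4 was called in no line.

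Calls among the tri-snRNP proteins went both ways, with a share higher near or below that of all genes in the first 3 lines (20.9%, 16.6% and 23.8%). Of 11, 7 were lower and 1 higher in HGC-27, 3 lower and 2 higher in HCT-8, 8 lower and 2 higher in Huh-7, and 3 lower and 1 higher in HepG2 cells (7 and 2 without melatonin replicate 1). SNRNP40, a WD-repeat protein of U5, was 7.83, 7.78 and 7.84 in control and 6.87, 6.83 and 6.88 with melatonin in Huh-7 cells. In HepG2 cells it was 6.62, 6.88 and 6.81 in control and 5.84, 6.0 and 6.12 with melatonin. All melatonin arrays were below all control arrays in both liver lines and also in the other lines. SNRNP40 fell 1.94-fold in Huh-7 (-0.96 ± 0.05, limma adjusted p = 1.19e-06) and 1.72-fold in HepG2 cells (-0.78 ± 0.11, limma adjusted p = 0.0157, and -0.71 without melatonin replicate 1), with -0.33 in HGC-27 and -0.49 in HCT-8 cells. PRPF4, the U4 protein that forms a complex with PRPF3, changed by -0.47, -0.44, -0.58 and -0.66 in the 4 lines (-0.58 in HepG2 without melatonin replicate 1). Its HepG2 arrays were 6.56, 6.49 and 6.47 in control and 5.71, 5.85 and 6.0 with melatonin, with no overlap. PRPF3 itself fell in HGC-27 (-0.55), Huh-7 (-0.80) and HepG2 cells (-0.53, or -0.57 without melatonin replicate 1), and measured -0.13 in HCT-8 cells. PRPF31, the U4 protein mutated in a form of retinitis pigmentosa, fell in HGC-27 (-0.27) and Huh-7 (-0.46), and in HepG2 cells without melatonin replicate 1 (-0.35, against -1.16, not called, with it). PRPF38A, needed to activate the spliceosome, fell in the same lines (-0.31 and -0.44, with -0.05 in HepG2, or -0.27, called lower, without melatonin replicate 1). On its brighter probe set PRPF38A measured 0.16 in HGC-27 and 0.01 in Huh-7 cells, neither called, against -0.79 and -0.90 on the other. PRPF6, which bridges U5 to U4 and U6, fell in HGC-27 (-0.38) and Huh-7 cells (-0.37).

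SNRNP27, a tri-snRNP protein rich in arginine and serine, went the other way. Its arrays were 6.08, 6.03 and 5.98 in control and 6.26, 6.39 and 6.41 with melatonin in HGC-27 cells. They were 5.44, 5.43 and 5.46 in control and 5.85, 5.94 and 5.99 with melatonin in Huh-7 cells. They were 5.03, 5.14 and 5.02 in control and 5.91, 5.50 and 5.55 with melatonin in HepG2 cells. Every melatonin array exceeded every control array in these lines and in HCT-8 cells. SNRNP27 rose by 0.32, 0.46, 0.48 and 0.59 log2 units in the 4 lines (0.46 in HepG2 without melatonin replicate 1). PRPF18, a factor of the second splicing step, rose in HCT-8 (0.22) and Huh-7 cells (0.34), with 0.72 in HepG2 cells (limma adjusted p = 0.0654) and 0.55 without melatonin replicate 1 (limma adjusted p = 0.00422). The largest U5 proteins, PRPF8 and the helicase SNRNP200, hardly moved: PRPF8 was called in Huh-7 cells only (-0.22), and SNRNP200 in none, with changes from -0.08 to 0.07.

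**Figure D3:**
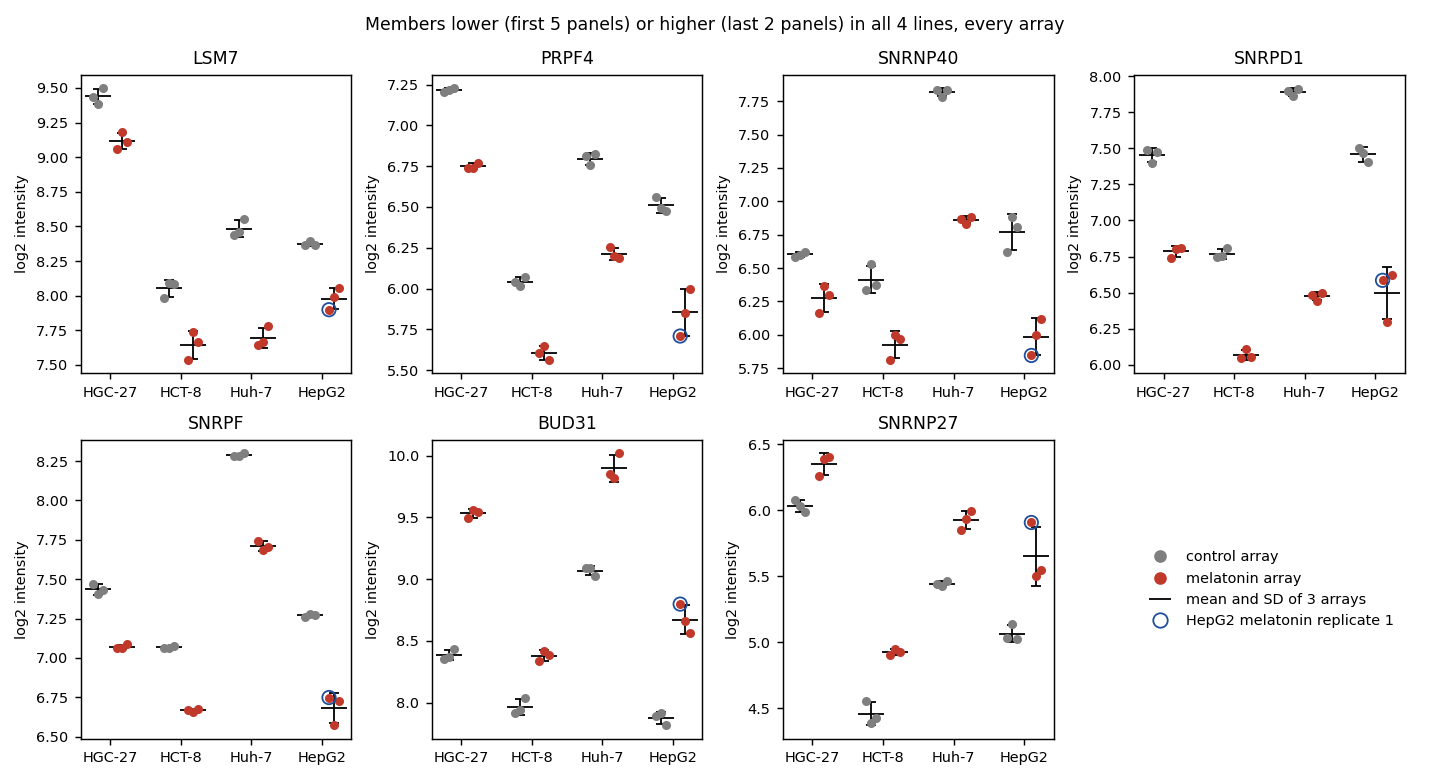
Log2 intensity (y axis) on every array of the 5 members lower and the 2 higher in all 4 lines (x axis), with control arrays in grey, melatonin arrays in red, and bars for the mean and SD of 3 arrays. A blue circle marks HepG2 melatonin replicate 1. No melatonin array overlaps a control array of its line, and the widest gap is that of SNRPD1 in Huh-7 cells (-1.41).

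The LSm proteins form a nuclear ring on U6 RNA (LSM2 to LSM8) and a cytoplasmic ring that serves messenger RNA decay, in which LSM1 takes the place of LSM8. Of these 8, 4 were lower and 1 higher in HGC-27, 5 lower in HCT-8, 6 lower in Huh-7 and 1 lower in HepG2 cells (6 without melatonin replicate 1). The falls lay in subunits that both rings share. LSM6 was 7.77, 7.70 and 7.73 in control and 6.98, 7.09 and 7.13 with melatonin in HGC-27 cells. In HepG2 cells it was 7.52, 7.51 and 7.40 in control and 7.64, 6.79 and 6.89 with melatonin. Groups were apart in HGC-27 cells but overlapped in HepG2 cells, through replicate 1. LSM6 changed by -0.67, -0.31 and -0.77 in the first 3 lines, and by -0.37 in HepG2 (limma adjusted p = 0.415) or -0.64 without melatonin replicate 1 (limma adjusted p = 0.000395). LSM5 changed by -0.64, -0.58 and -0.55 in the first 3 lines, and LSM3 by -0.31, -0.57 and -0.50. Of the 2 probe sets of LSM5, the dimmer measured -1.21 in HGC-27 and -1.10 in Huh-7 cells. The brighter measured -0.07 and -0.01 there, not called, while both were called lower in HCT-8 cells. In HepG2 cells LSM5 changed by -0.70 and LSM3 by -0.31, not called, or by -0.97 and -0.62, both called, without melatonin replicate 1. LSM7 fell in all 4 lines, with -0.32, -0.41, -0.79 and -0.40 (-0.36 in HepG2 without melatonin replicate 1). Neither of the 2 probe sets of LSM7 was called by itself in HepG2 cells (-0.52 and -0.28). LSM2 fell in Huh-7 cells only (-0.56). The subunits that tell the rings apart, LSM1 and LSM8, were called in no line. LSM1 measured 0.04, -0.03, -0.04 and -0.12, and LSM8 -0.09, 0.15, -0.04 and 0.01. Without HepG2 melatonin replicate 1, both were lower in HepG2 cells (-0.37 and -0.25).

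LSM4 was the 1 member called in opposite directions. It was 8.92, 8.91 and 8.97 in control and 9.08, 9.16 and 9.13 with melatonin in HGC-27 cells. It was 7.72, 7.80 and 7.80 in control and 7.31, 7.39 and 7.40 with melatonin in HCT-8 cells. It was 7.69, 7.78 and 7.76 in control and 4.55, 7.77 and 7.83 with melatonin in HepG2 cells. The melatonin arrays were thus above control in HGC-27, below it in HCT-8, and in HepG2 level with control apart from replicate 1. LSM4 changed by 0.19 (limma adjusted p = 0.0109), -0.41 (0.000771) and -0.15 (0.0223) in the first 3 lines. In 1 model of all lines the difference between lines was not called with every array (limma adjusted p = 0.491) and was called without HepG2 melatonin replicate 1 (limma adjusted p = 3.77e-07).

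The 5 LSm proteins outside those rings went both ways, with 1 lower and 1 higher in HGC-27, 1 higher in HCT-8 and 1 lower and 2 higher in Huh-7 cells. The counts in HGC-27 and HCT-8 cells are near the shares of all genes (18.6% lower and 20.9% higher, and 16.6% higher). In HepG2 cells none was called, with changes from -0.43 to -0.08, and 2 were lower without melatonin replicate 1. LSM10, which with LSM11 replaces a pair of D subunits in the U7 particle that processes histone messages, rose in the first 3 lines (0.26, 0.23 and 0.25) and measured -0.27 in HepG2 cells (-0.06 without melatonin replicate 1). LSM11 rose in Huh-7 cells only (0.27). LSM12 fell in Huh-7 (-0.23, and in HepG2 by the same amount without melatonin replicate 1) and LSM14B in HGC-27 cells (-0.27, but 0.058 on its brightest probe set).

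The U11 and U12 proteins split. SNRNP25, a U11 protein, was 8.32, 8.27 and 8.39 in control and 7.42, 7.33 and 7.39 with melatonin in Huh-7 cells. In HepG2 cells it was 8.31, 8.36 and 8.33 in control and 7.57, 7.64 and 7.85 with melatonin. In HGC-27 cells it was 7.75, 7.67 and 7.84 in control and 7.63, 7.79 and 7.75 with melatonin. Groups were apart in both liver lines and overlapped in HGC-27 cells. SNRNP25 changed by -0.03, -0.28, -0.95 and -0.65 in the 4 lines (-0.59 in HepG2 without melatonin replicate 1), a difference between lines that passed the joint test (limma adjusted p = 5.44e-06). SNRNP48, another U11 protein, rose in the first 3 lines (0.53, 0.27 and 0.26) and measured 0.12 in HepG2 cells (0.08 without melatonin replicate 1). That rise rests on 1 of its 3 probe sets in Huh-7 cells, which gave 1.10, while the others gave -0.11 and -0.21. SNRNP35, a U11 relative of SNRNP70, was called in no line. Of 6 further U11/U12 partners, none was lower on the full arrays, and 3, 2, 2 and 0 were higher in the 4 lines (1 lower and 2 higher in HepG2 without melatonin replicate 1), against 20.9%, 16.6%, 23.8% and 3.87% of all genes higher. Among them ZMAT5, a U11 protein, rose in the first 3 lines (0.30, 0.36 and 0.46, with -0.54 in HepG2, or -0.15 without melatonin replicate 1, not called), and was chosen for mention after its values were seen. RNPC3, which bridges U11 and U12, rose in HGC-27 cells (0.42), and in HepG2 cells without melatonin replicate 1 (0.36, against 0.95, not called, with it).

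Proteins that join as the spliceosome becomes active included the member with the largest rise. BUD31, a protein of the active spliceosome, was 8.35, 8.37 and 8.43 in control and 9.49, 9.56 and 9.54 with melatonin in HGC-27 cells. It was 9.09, 9.09 and 9.02 in control and 9.85, 9.82 and 10.02 with melatonin in Huh-7 cells. It was 7.89, 7.92 and 7.82 in control and 8.80, 8.66 and 8.56 with melatonin in HepG2 cells. All melatonin arrays were above all control arrays in each of these lines, as in HCT-8 cells. BUD31 rose 2.21-fold in HGC-27 (1.15 ± 0.05, limma adjusted p = 1.72e-06), 1.34-fold in HCT-8 (0.42 ± 0.06, limma adjusted p = 0.000813), 1.78-fold in Huh-7 (0.83 ± 0.06, limma adjusted p = 1.23e-05) and 1.74-fold in HepG2 cells (0.80 ± 0.09, limma adjusted p = 0.00909, and 0.73 without melatonin replicate 1). PRPF19, the ubiquitin ligase at the heart of the PRPF19 complex, fell in the first 3 lines (-0.47, -0.47 and -0.71), and in HepG2 cells without melatonin replicate 1 (-0.43, against -1.15, not called, with it). BUD13, known in yeast as a subunit of a complex that helps to keep pre-messenger RNA in the nucleus, was 5.86, 5.59 and 5.65 in control and 4.76, 4.79 and 4.78 with melatonin in Huh-7 cells. Its groups did not overlap in any line. BUD13 changed by -0.53, -0.93 and -0.86 in HGC-27, Huh-7 and HepG2 cells (-0.80 in HepG2 without melatonin replicate 1), and by -0.19 in HCT-8 cells (limma adjusted p = 0.0646). CWC22, which recruits the exon junction complex, fell in HGC-27 (-0.24) and Huh-7 cells (-0.31), and CWC25, a first-step factor in yeast, in the same lines (-0.13 and -0.27). CWC15 and the isomerase CWC27 were called in no line. BUD23, the ribosomal RNA methyltransferase, fell in Huh-7 cells only (-0.35).

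Promoter sequence was compared because the members moved together. RefSeq promoters (GRCh38.p14) were found for 55 of the 64 members, and 6 short motifs were searched on both strands of the 250 bases before each start. The letters CCGGAAG, a strong form of the site read by ETS factors, were in 24 of the 55 (43.6%), against 11.8% of 15842 protein-coding promoters. They were in 41.2% of the 17 members with a promoter entry that were lower in at least 3 lines and in 60.0% of the 15 with an entry that were lower in no line, so the share was not higher among the members that fell. CCAAT was in 43.6% of members (34.5% of all), GGGCGG (SP1) in 60.0% (56.0%), GCATGCGC (NRF1) in 7.27% (3.7%), CACGTG (E-box) in 5.45% (7.84%) and AAGATGGC (YY1) in 1.82% (1.39%). Both members higher in all 4 lines held CCGGAAG, and none of the 4 matched members lower in all 4 lines did. GGGCGG was in all 4 of these lower members and in 1 of the 2 higher ones. Sets of 2 and 4 genes are too small to relate a motif to the direction of change. The 150 bases before the start are shown for those 2 higher members and for LSM7, the 1 lower member with an NRF1 match, with the ETS or NRF1 letters in capitals (in LSM7 the second run joins 2 overlapping matches). BUD31 lies at chr7:99408819-99408968 on the plus strand, SNRNP27 at chr2:69893806-69893955 on the plus strand and LSM7 at chr19:2328587-2328736 on the minus strand.
BUD31: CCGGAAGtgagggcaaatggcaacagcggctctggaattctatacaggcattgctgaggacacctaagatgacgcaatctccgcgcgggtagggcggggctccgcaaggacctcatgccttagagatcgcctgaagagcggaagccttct
SNRNP27: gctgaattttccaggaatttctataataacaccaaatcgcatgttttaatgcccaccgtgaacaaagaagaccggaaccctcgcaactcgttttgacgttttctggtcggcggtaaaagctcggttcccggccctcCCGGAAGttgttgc
LSM7: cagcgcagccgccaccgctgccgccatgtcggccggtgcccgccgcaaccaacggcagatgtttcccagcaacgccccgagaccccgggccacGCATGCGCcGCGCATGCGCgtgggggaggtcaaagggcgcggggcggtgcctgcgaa
A match describes these letters only and is not a measured binding site.

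Of 92 measured genes on 10 lists of other spliceosome and snRNP assembly proteins, 53 were lower and 8 higher in HGC-27, 31 and 10 in HCT-8, 58 and 13 in Huh-7, and 9 and 0 in HepG2 cells (42 and 9 without melatonin replicate 1). These counts stand beside the same shares of all genes, 18.6%, 15%, 27.4% and 3.68% lower and 20.9%, 16.6%, 23.8% and 3.87% higher. In HepG2 without melatonin replicate 1 those shares were 14.9% lower and 16.5% higher. The medians of the 92 genes were -0.20, -0.10, -0.32 and -0.17 log2 units (-0.16 in HepG2 without melatonin replicate 1). Lower in all 4 lines were 6 of them (1.5% of all genes), DDX46, WDR77, PPIL1, PPIH, MAGOHB and NCBP1. DDX46, the helicase that remodels U2 at the branch point, fell more than any member in the first 3 lines: its Huh-7 arrays were 7.0, 7.01 and 7.02 in control and 5.06, 4.96 and 4.96 with melatonin. The groups were far apart. DDX46 changed by -1.22, -1.38, -2.02 and -1.13 in the 4 lines (-1.36 in HepG2 without melatonin replicate 1). WDR77, a partner of the methyltransferase that prepares Sm proteins for ring assembly, changed by -0.79, -0.70, -1.14 and -0.91 (-0.72 in HepG2 without melatonin replicate 1). Of the 12 genes of the SMN complex and Sm assembly, 9, 5, 8 and 1 were lower (8 in HepG2 without melatonin replicate 1). SNU13, which binds U4 RNA in the tri-snRNP, changed by -0.72, -0.54 and -1.29 in the first 3 lines and -0.75 in HepG2 cells (limma adjusted p = 0.0674, and -0.55, called lower, without melatonin replicate 1), and PPIH, an isomerase bound to PRPF4, by -0.31, -0.53, -0.78 and -0.83 in all 4 (-0.65 in HepG2 without melatonin replicate 1). NCBP1, which binds the RNA cap, changed by -0.78, -0.38, -0.77 and -0.61 (-0.72 in HepG2 without melatonin replicate 1).

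Most members had several probe sets, which can read different transcripts of a gene, and these were seldom called in opposite directions. For some members, such as LSM5, PRPF38A and SF3A3, a probe set fell while another was not called. Of the 48 members with several, probe sets were called in both directions for 2, 1, 1 and 0 in the 4 lines. Over the 169 probe sets of members, 78 were lower and 14 higher in HGC-27 cells, against 16.4% and 18.4% of all probe sets. The counts were 55 lower and 8 higher in HCT-8 (11% and 14.5% of all), 87 and 11 in Huh-7 (23.1% and 22.5%), and 9 and 1 in HepG2 cells (2.14% and 2.32%), or 67 and 6 without melatonin replicate 1 (12.8% and 14.3%). LSM14A, a cytoplasmic protein of messenger RNA granules, was called in no line as a gene, with means of 0.00, 0.00, -0.03 and -0.09 (-0.22, called lower, in HepG2 without melatonin replicate 1). Its 6 probe sets did not stand still. In Huh-7 cells 3 were lower (-0.41, -0.42 and -0.40) and 3 higher (0.39, 0.33 and 0.34). In HGC-27 cells 2 were lower (-0.34 and -0.35) and 2 higher (0.24 and 0.44), and in HCT-8 cells all lay between -0.13 and 0.05. In HepG2 cells the same 3 probe sets were below 0 (-0.44, -0.46 and -0.53) and the same 3 above it (0.41, 0.33 and 0.15), with none called, and 3 of the 6 called without melatonin replicate 1.

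PRPF38B, a relative of PRPF38A, was lower as a gene in HGC-27 (-0.58), HCT-8 (-0.18, but 0.056 after ERCC centring) and Huh-7 cells (-1.0), with -0.16 in HepG2 (-0.53, called lower, without melatonin replicate 1). Of its 3 probe sets, 1 was 5.46, 5.39 and 5.46 in control and 4.43, 4.08 and 4.30 with melatonin in HGC-27 cells. Another was 4.01, 3.64 and 3.97 in control and 4.56, 4.20 and 4.57 with melatonin on the same arrays. Neither pair of groups overlapped, and they moved in opposite directions. The first changed by -1.17 and -0.66 in HGC-27 and HCT-8 cells (limma adjusted p = 4.38e-05 and 0.00364 over all probe sets), and the last by 0.57 and 0.62 (limma adjusted p = 0.00908 and 0.00109). In Huh-7 cells they changed by -1.50 and -0.06. The mean over probe sets of PRPF38B thus joined 2 that fell with 1 that rose in HGC-27 and HCT-8 cells.

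**Figure D4:**
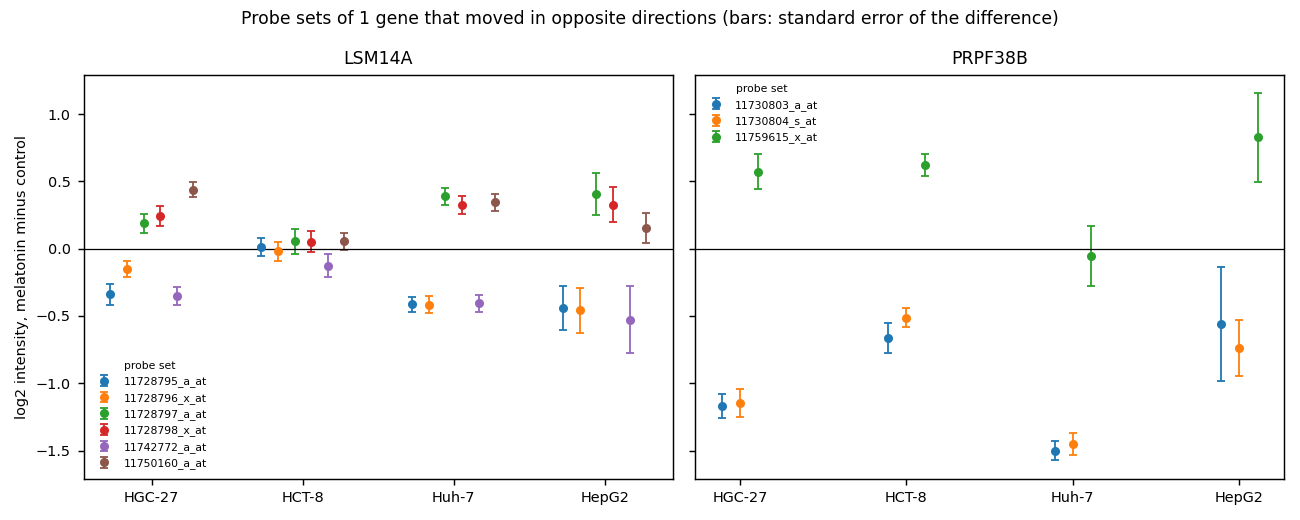
Change of each probe set (log2 intensity, melatonin minus control, y axis; bars are the SE of the difference, n = 3 and 3 arrays) of LSM14A and PRPF38B in each line (x axis). In Huh-7 cells the LSM14A probe sets fall into 3 near -0.4 and 3 between 0.33 and 0.39, and in HGC-27 cells those of PRPF38B range from -1.17 to 0.57.

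The calls in HepG2 cells turned on melatonin replicate 1. On that array 12 of the 64 members differed by more than 1 log2 unit from the mean of the other melatonin replicates, 8 below and 4 above, whereas no array of the other 3 lines and no HepG2 control had any such member. PRPF6 was 6.70, 6.74 and 6.73 in control and 2.75, 6.19 and 6.22 with melatonin. The value of replicate 1 lay far below all the others, and the other melatonin arrays also lay below control. PRPF6 changed by -1.67 ± 0.93 with every array (limma adjusted p = 0.366) and by -0.52 ± 0.06 without replicate 1 (limma adjusted p = 0.000458). PRPF31, SNRPA, SNRPB, PRPF19, LSM4, BUD23 and LSM14B were low on replicate 1 in the same way, and SF3A2, SNRPN, PRPF40B and PRPF38B high. The median SD of members over the HepG2 melatonin arrays was 0.291, against 0.0504 over the HepG2 controls.

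**Figure D5:**
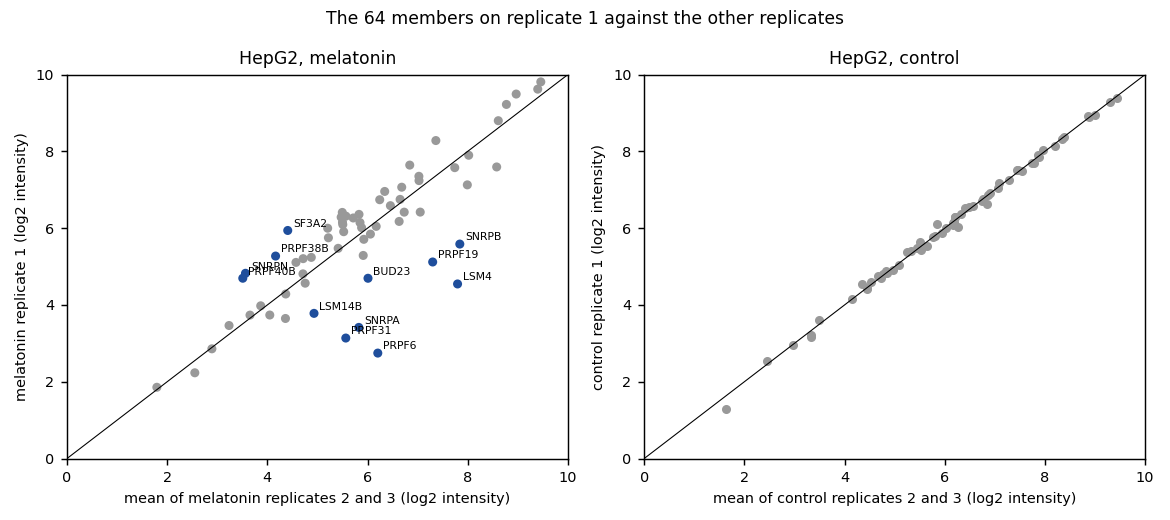
Log2 intensity of the 64 members on HepG2 replicate 1 (y axis) against the mean of replicates 2 and 3 (x axis), for melatonin (left) and control (right); the line marks equal values. Blue points, with names, are the 12 members more than 1 log2 unit off the line, from PRPF6 (2.75 on replicate 1) to SF3A2 (5.94), and the control panel has none.

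Whether the melatonin effect differed between lines was tested with interaction terms in 1 model of the 24 arrays. It differed for 17 of the 64 members, or 26.6%, against 34.3% of all genes. Without HepG2 melatonin replicate 1 it differed for 42, or 65.6%, against 53.7%. SNRPD1 fell more in Huh-7 than in HGC-27 or HCT-8 cells (-1.41, -0.67 and -0.70, interaction limma adjusted p = 7.55e-06), and SF3B5, a small SF3b subunit, fell in HGC-27 (-0.45) and Huh-7 (-0.21) with 0.11 in HCT-8 cells (interaction limma adjusted p = 8.5e-06). For PRPF4, SNRNP27 and LSM5 no difference between lines was called (interaction limma adjusted p = 0.111, 0.276 and 0.918), which does not show that the lines responded alike.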

How the data were processed

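Total RNA of 24 samples was labelled and hybridized to a customized Affymetrix PrimeView array. Per the labels and the study's methods, the authors deposited log2 intensities from the robust multichip average method (background correction, quantile normalization and a summary per probe set), which draws arrays together and hides global shifts. Array medians were closer within a line than between lines, and levels were therefore compared only within each line. Precision is limited by the 3 arrays of a group.

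The table held 49495 probe sets, of which 45284 listed 1 gene symbol, 1333 several and 2878 none. After 6 control probe sets were left out, the other 45278 were averaged by gene to 18244 genes. The 64 members had 169 probe sets. Each line was fitted with limma 3.58.1 in R 4.3.3, tested on simulated data, with Benjamini-Hochberg adjustment over all genes at 5%. Lines were compared by interaction terms of a joint fit, which takes 1 spread per gene.

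The members and lists were chosen with earlier results of these data known. Genes named were those called alike in all 4 lines, the 5 members with the largest called change per line, members called both ways, up to 2 members per role and 2 genes per list by mean change. Others were added to describe each role. Replicate numbers did not pair the samples (correlations of deviations from -0.0413 to 0.136). Alternatives were a replicate block, the brightest probe set, a low-signal filter, a second quantile normalization, centring by the median or by ERCC, an intensity trend, the joint fit, the methods' t-test, a fold threshold and leaving out each array. Promoter sequences came from RefSeq (GRCh38.p14).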

Additional observations from a re-analysis of the deposited data

Results flagged for a closer look

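The melatonin effect differed between the lines for 9 of the 28 members named by rule, by the interaction test of the joint fit, adjusted over all genes. With every array 34.3% of all genes passed it, and 26.6% of the 64 members, so neither share of members was above that of all genes. Without HepG2 melatonin replicate 1, 65.6% of the members passed it, against 53.7% of all genes. The p-values that follow are with every array. SNRPD1 (adjusted p = 7.55e-06) and SNRNP40 (0.000576) had their largest falls in Huh-7 cells, -1.41 and -0.96, as did LSM7 (0.00109) with -0.79. SNRPF (0.0141) lay between -0.36 and -0.59, and SF3A3 (0.0452) between -0.35 in HepG2 and -0.77 in Huh-7 cells. BUD13 (3.77e-05) fell in HGC-27, Huh-7 and HepG2 cells and measured -0.19 in HCT-8 cells. SNRNP25 (5.44e-06) ran from -0.03 in HGC-27 to -0.95 in Huh-7 cells. BUD31 (2.96e-05) rose most in HGC-27 cells (1.15) and least in HCT-8 cells (0.42). SNRNP48 (0.0075) rose by 0.53 in HGC-27 and measured 0.12 in HepG2 cells.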

How the results depend on the processing

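HepG2 counts depended most on single arrays. Leaving out each array in turn, members lower ranged from 32 to 35 in HGC-27, 16 to 23 in HCT-8, 39 to 42 in Huh-7 and 0 to 31 in HepG2 cells (31 without melatonin replicate 1, 2 without melatonin replicate 2, 0 without any 1 control), and members higher from 6 to 6, 3 to 6, 6 to 6 and 0 to 3. Members lower in all 4 lines ranged from 0 to 15 and higher from 0 to 2, and those differing between lines from 15 to 42 (26 and 27 without HepG2 melatonin replicates 2 and 3). With the replicate number as a block, the counts in HepG2 cells and in all 4 lines became 0 in limma, both lower and higher, 15 members differed between lines, and the counts lower were 33, 20 and 42 in the first 3 lines. The brightest probe set gave 5 lower and 1 higher in HepG2 cells and 3 lower and 1 higher in all 4 lines. It turned LSM14B in HGC-27 cells to 0.058 and SNRNP48 in Huh-7 cells to -0.21. Quantile normalization again and an intensity trend with robust spread each left 1 higher in HepG2 cells and in all 4 lines.

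Centring on the ERCC probe set gave 7 lower in HGC-27, 1 in HCT-8, 13 in HepG2 cells and 1 in all 4 lines, with 2 higher in Huh-7 and 0 higher in HepG2 cells and in all 4 lines. It turned PRPF38B to 0.056, U2AF2 to 0.035 and the U2 helicase DDX42 to 0.035 in HCT-8 cells. The joint fit gave 22 lower and 3 higher in HGC-27, 11 and 3 in HCT-8, and 27 and 7 in HepG2 cells. The methods' t-test gave 3 lower in all 4 lines, 3 higher in HCT-8, and 1 higher in HepG2 cells and in all 4 lines. A change of at least 1.5-fold left 3 lower and 1 higher in HGC-27, 1 and 0 in HCT-8, 12 and 1 in Huh-7 cells, and 1 and 0 in all 4 lines. The filter on low signal and centring on the median kept every count within 1.5 times. The causes of these changes were not tested.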

Other observations

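Kinases that phosphorylate arginine- and serine-rich splicing factors were looked up after the values of the members had been seen. SRPK2, a cytoplasmic kinase of these factors, was 5.83, 5.83 and 5.80 in control and 6.38, 6.25 and 6.30 with melatonin in Huh-7 cells. It rose in all 4 lines, by 0.27, 0.43, 0.49 and 0.70 log2 units in the 4 lines (0.57 in HepG2 without melatonin replicate 1). Its relative SRPK1 fell in HGC-27 (-0.24) and Huh-7 cells (-0.56) but missed the threshold in HCT-8 (-0.18, limma adjusted p = 0.0639) or HepG2 cells (-0.17, and -0.30, called lower, without melatonin replicate 1). SRPK3 fell in Huh-7 cells only (-0.42). CLK1, a nuclear kinase of the same factors, rose in all 4 lines (0.61, 0.32, 0.26 and 0.46, and 0.45 in HepG2 without melatonin replicate 1). CLK2 rose in the first 3 lines (0.19, 0.22 and 0.21), CLK3 in HCT-8 (0.17) and CLK4 in Huh-7 cells (0.32). In HepG2 cells CLK2 measured 0.42 and CLK3 0.12, not called, and without melatonin replicate 1 both were called higher (0.64 and 0.20).

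Some probe sets list a member together with a second gene and entered no comparison above. The 2 shared by SF3B4, a subunit of SF3b, and GARIN2 measured -0.30 and -0.30 in HGC-27 and -0.24 and -0.25 in HCT-8 cells. They measured -0.33 and -0.26 in Huh-7, and -0.02 and -0.07 in HepG2 cells (-0.17 and -0.10 without melatonin replicate 1, not called). Both were called lower in the first 3 lines, whereas SF3B4 as a gene was not called in HCT-8 cells. The 1 shared by SNRPG, a ring subunit, and SNRPGP15 was called lower in the first 3 lines (-0.44, -0.32 and -0.58). In HepG2 cells it measured -0.29, not called (-0.52, called lower, without melatonin replicate 1). SNRPG as a gene was called in Huh-7 cells alone of the first 3 lines. The 3 shared by SNRPN and SNURF were 8.01, 8.08 and 7.98, 8.35, 8.46 and 8.52, and 8.71, 8.79 and 8.79 on the HepG2 control arrays. On melatonin replicates 2 and 3 they were 7.75 and 7.81, 8.18 and 8.25, and 8.59 and 8.73. On melatonin replicate 1 they were 3.78, 3.89 and 7.45, so that 2 of the 3 lay far below every other HepG2 array. Without that array these 3 changed by -0.24, -0.22 and -0.11 in HepG2 cells, none called. SNRPN as a gene, from its own dimmer probe sets, was called lower there.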
